A study of Arabidopsis thaliana with 36 samples.

Results

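The psbB operon is a run of 5 plastid genes, psbB, psbT, psbH, petB and petD, read as 1 unit from a promoter ahead of psbB. Its members were chosen by name, so the choice used no measured value, although it was made knowing that petB lay low in these data. They are 5 of 128 plastid genes measured. The plastid-encoded RNA polymerase (PEP) is the bacterial-type enzyme that transcribes most photosynthesis genes of a chloroplast; RpoB is its beta subunit. The psbB operon is a textbook PEP unit: it is copied into a long RNA that is then cut and spliced into shorter ones, and it joins subunits of photosystem II with subunits of the cytochrome b6f complex. Inside it lies psbN, on the opposite strand and with a promoter of its own.

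Chromatin immunoprecipitation with sequencing (ChIP-seq) measured where RpoB, or the PEP-associated protein pTAC3, sat on the plastid genome of Arabidopsis thaliana. The groups were RpoB ChIP in the ptac3 mutant and in Col-0, the wild type (the ptac3 experiment); RpoB ChIP in the ptac14 mutant and in Col-0 (the ptac14 experiment); and pTAC3 ChIP in the ptac3 mutant and in Col-0 (the pTAC3 experiment). Every ChIP group had 3 libraries and a matching group of 3 input libraries, sequenced without immunoprecipitation, which made 36 libraries in 12 groups. Lists of 3 values, 1 per experiment, follow this order. All were pools of whole seedlings 5 days old, untreated and grown in continuous light, from which a chloroplast pellet was taken after formaldehyde crosslinking. The series asks whether pTAC3 and pTAC14 are needed for PEP to bind DNA. The labels name neither the mutant alleles nor the antibodies. The pTAC3 ChIP in ptac3 serves as the control without its antigen. The mutated genes are nuclear and have no position in the plastid table, so the genotype labels could not be checked there.

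Mean coverage per position was 59.2 to 204 in the mutant ChIP libraries and 113 to 1540 in the Col-0 ChIP libraries, and 425 to 924 in mutant inputs and 318 to 730 in Col-0 inputs. Depth of the ChIP libraries thus moved with genotype, and its part in the results was not tested. Within the members the lowest mean ChIP coverage was 42.3, over petB, where counting error at a single position is 15.4% of the value. Enrichment is given as log2(ChIP/input) after each library was scaled to its own mean coverage, so 0 means the same share of reads as in the input. Fewer bound plastid genomes and less protein on each genome cannot be told apart in pooled seedlings. No input differed between mutant and Col-0 at any of the 5 members. Their input differences ran from -0.067 to 0.028 in the ptac3 experiment, from 0.0083 to 0.051 in the ptac14 experiment and from -0.018 to 0.052 in the pTAC3 experiment. The lowest adjusted p among them was 0.35 (limma), where 0%, 9.38% and 0.781% of all genes were called in the 3 experiments.

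In the mutants all 5 genes of the operon lay near the input. In Col-0 the operon carried a maximum of RpoB and of pTAC3 just before psbB. A second one lay at the edge of psbN that faces psbH and in the spacer between these genes. The Col-0 level was low over psbB, psbT and psbH, and lower over petB and petD. The profile was read along the strand from 1000 bp before psbB to 500 bp after petD (137 bins of 50 bp, distances counted from the start of the annotated psbB gene). None of the 9 mutant libraries had its highest bin between 300 and 100 bp before psbB, whereas the highest bin of each of the 9 Col-0 libraries lay 146 or 196 bp before it. These bounds were set after the profiles had been seen, and the counts are a description.

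**Figure D1:**
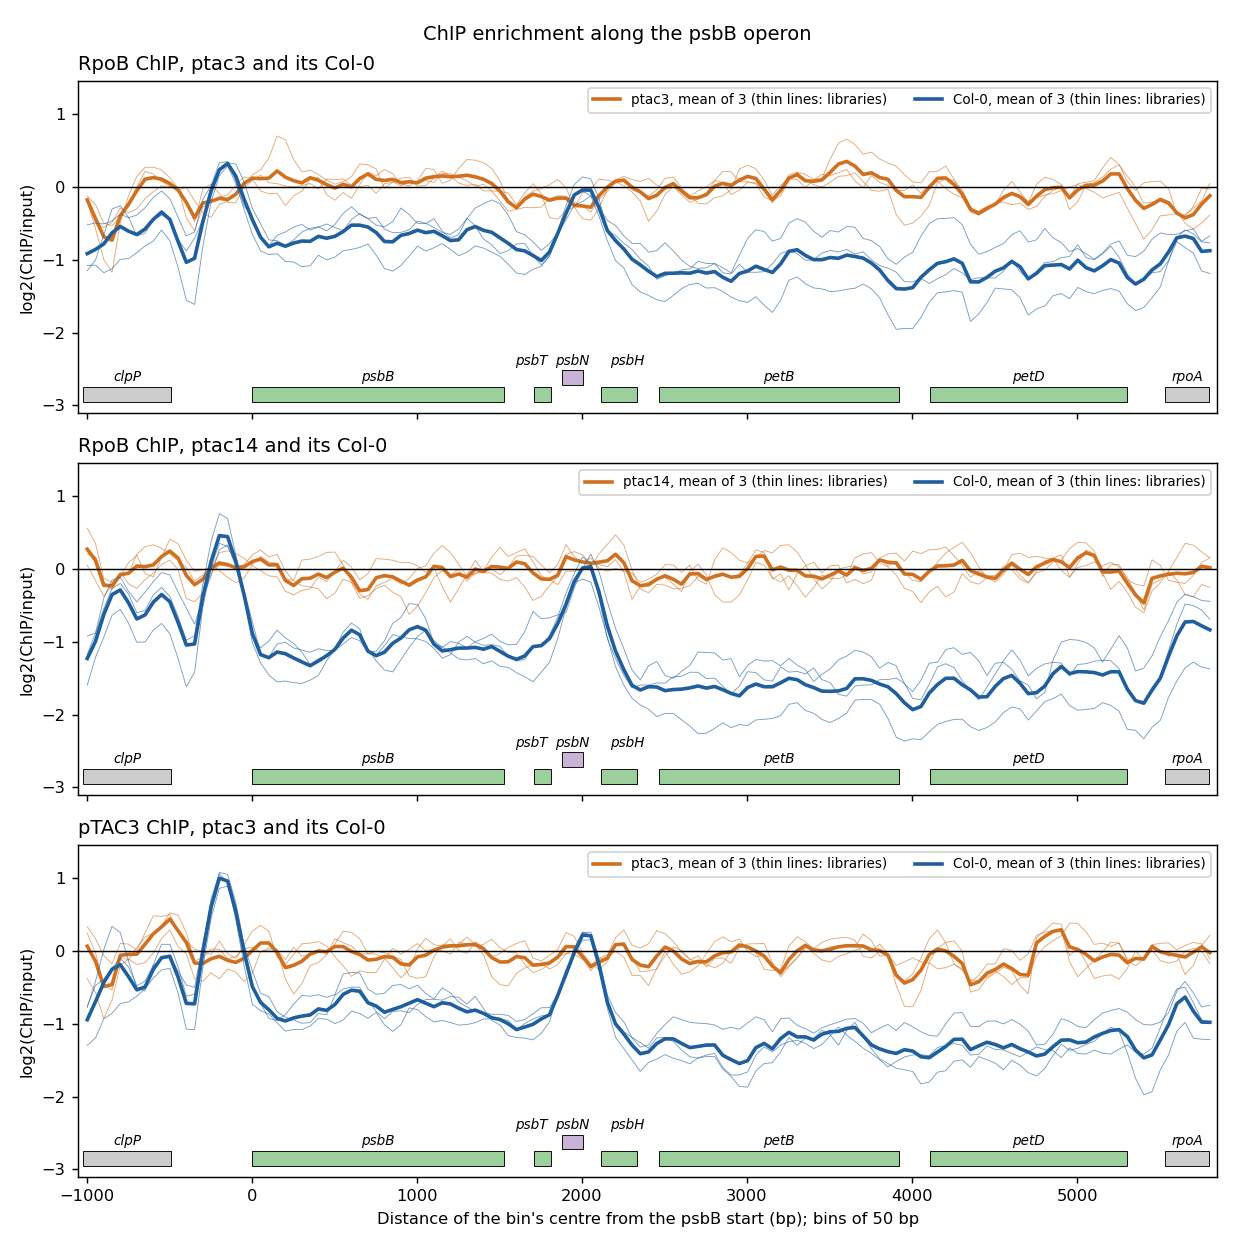
Enrichment (log2 of ChIP over input, y axis) in bins of 50 bp against distance from the psbB start (x axis), for the mutant and Col-0 libraries of the 3 experiments; thin lines are single libraries and thick lines means of 3. The mutant means stay close to 0 over the 5 genes. The Col-0 lines peak before psbB and again between psbN and psbH, and step down over petB and petD. Boxes mark genes, green for the operon, violet for psbN on the other strand and grey for neighbours.

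With RpoB ChIP in the ptac3 experiment, the highest bin of the ptac3 mean was 0.35 ± 0.27 (SD, n = 3), inside petB, 3604 bp after the psbB start. The highest Col-0 bin averaged 0.32 ± 0.031 and lay at positions 72201 to 72250 of the coverage table, 146 bp before psbB. In the ptac14 experiment the highest bin in ptac14 was 0.27 ± 0.26, at the upstream edge of the window, in clpP, and the highest Col-0 bin averaged 0.45 ± 0.26 at positions 72151 to 72200, 196 bp before psbB. For pTAC3 ChIP the highest bin in ptac3 was 0.44 ± 0.13, 496 bp before psbB, and the Col-0 maximum was 1.00 ± 0.12 in the bin 196 bp before psbB. The maxima of the mutant means thus lay in 3 different places, and those of the Col-0 means fell within 1 bin of each other. Library by library, 3 of 9 mutant libraries had their highest bin 496 bp before psbB: ptac14 replicate 2, at 0.40, and ptac3 replicates 1 and 3 of the pTAC3 experiment, at 0.50 and 0.52. The other 6 mutant libraries each had it in a different place.

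A bin counted as called when its adjusted p was under 0.05 (limma, Benjamini-Hochberg over all bins of the plastid genome). From the psbB start to the petD end, none of 107 bins was called against input in the mutants of any experiment, where 1.36%, 0% and 0.389% of all bins were called. In Col-0 the stretch above input before psbB was 50 bp long in the ptac3 experiment, 100 bp in the ptac14 experiment and 200 bp in the pTAC3 experiment, and it was the only called stretch above input in the window in each experiment. Over the whole genome 20.8%, 20.2% and 22.9% of bins were called above input in Col-0 of the 3 experiments. Of the same 107 bins, 103 were below input in Col-0 in every experiment, where 71.5%, 71.8% and 70.1% of all bins were. The 4 exceptions were the same in each experiment: the bins 1930 to 2129 bp after the psbB start. They hold part of psbN, the spacer between psbN and psbH and the first bases of psbH. Against Col-0 the mutants were higher in 102, 103 and 102 of the 107 bins, and 66.8%, 69.4% and 66.6% of all bins were higher.

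The 7 bins around the psbB start formed a window, from 250 bp before to 50 bp after it. Its enrichment was -0.040, -0.023 and -0.11 in the 3 ptac3 libraries, against -0.16, 0.072 and -0.031 in their Col-0 libraries. RpoB in the ptac14 experiment gave -0.049, 0.14 and 0.072 in ptac14 and -0.20, 0.061 and -0.20 in Col-0. Mutant and Col-0 overlapped in both RpoB experiments at this scale. For pTAC3 the window held 0.075, -0.31 and -0.013 in ptac3 and 0.41, 0.26 and 0.35 in Col-0, and the groups did not overlap. Of the 7 bins, 1, 0 and 4 were called lower in the mutant, where 19.1%, 17.5% and 21.2% of all bins were, and 2, 2 and 2 higher. With libraries scaled to the median bin, 5, 5 and 5 were called lower and 0 higher. That scaling also called 63, 67 and 65 of all 128 genes lower and 14, 27 and 23 higher. The share of all bins called lower with it is not given here, so these counts are not a result particular to the psbB start.

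Only the shape within a library is free of the scaling, since any other scaling shifts all bins of a library by the same amount. Measured that way, the window stood above the petB gene body by -0.18, -0.061 and -0.13 in the ptac3 libraries, against 1.31, 0.86 and 1.01 in their Col-0 libraries. The ptac14 libraries gave -0.037, 0.13 and 0.19, against 1.10, 1.58 and 1.84 in Col-0. With pTAC3 ChIP the difference was 0.12, -0.26 and 0.021 in ptac3 and 1.42, 1.67 and 1.74 in Col-0. Every mutant library lay below every Col-0 library of its experiment. The group difference, mutant minus Col-0, was -1.19, -1.41 and -1.65 in the 3 experiments. Each had an exact two-sided permutation p of 0.1, the smallest that 3 against 3 libraries can give, so this design cannot reach 0.05.

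**Figure D2:**
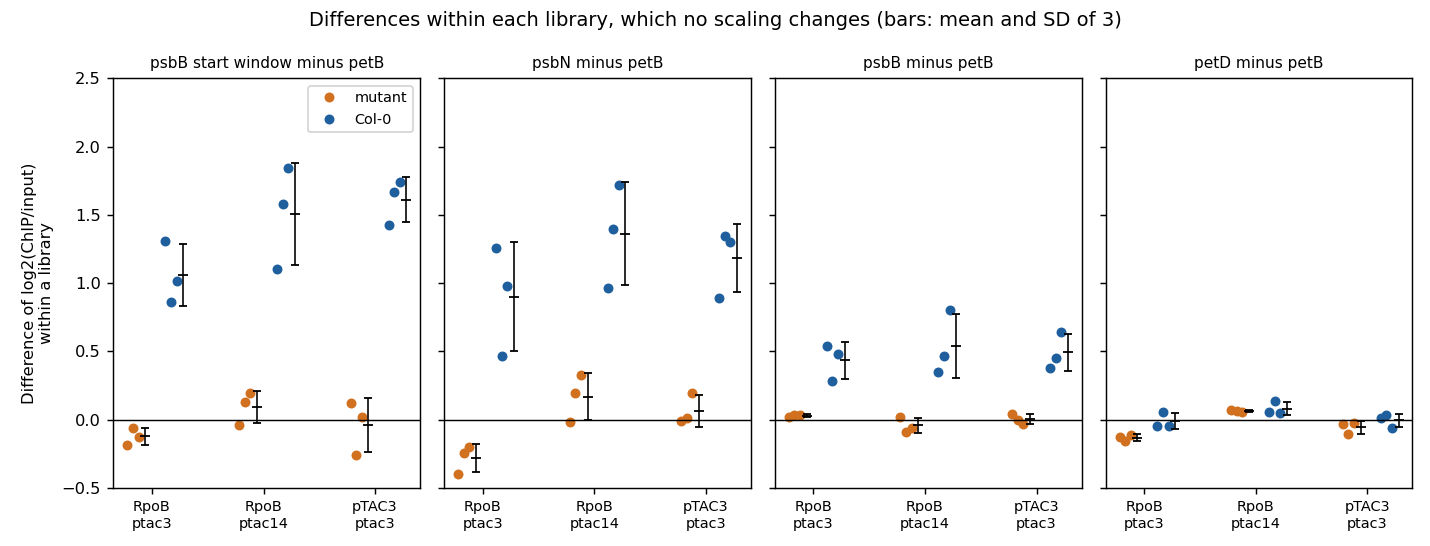
Differences of log2(ChIP/input) within each library (y axis) for the window around the psbB start, psbN, psbB and petD, each minus petB, by experiment (x axis); points are libraries and bars the mean and SD of 3, with mutants left of Col-0. The mutant points lie near 0 and the Col-0 points of the first 3 panels lie above them, while petD and petB differ little in either.

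psbB encodes the core antenna protein of photosystem II that hands light energy to the reaction centre. Its gene body (ArthCp049, 1527 bp, bins at 72351 to 73900) had an enrichment of 0.16, 0.074 and 0.045 in ptac3, against -0.93, -0.51 and -0.56 in Col-0. RpoB over psbB was 0.0086, -0.077 and -0.18 in ptac14, against -0.96, -1.05 and -1.23 in Col-0. The pTAC3 values were -0.0049, -0.044 and -0.065 in ptac3 and -0.63, -0.95 and -0.75 in Col-0. No mutant library overlapped the Col-0 libraries. With libraries scaled to their mean the change, mutant minus Col-0, was 0.76 ± 0.18 (SE; adjusted p = 3.52e-05) in the ptac3 experiment, 1.00 ± 0.19 (0.000153) in the ptac14 experiment and 0.74 ± 0.17 (1.54e-05) in the pTAC3 experiment (limma, adjusted over 128 genes).

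psbT and psbH encode small membrane subunits of photosystem II; the psbH protein is phosphorylated. Over psbT (ArthCp050, 102 bp) enrichment averaged -0.14 ± 0.12 in ptac3 and -0.96 ± 0.12 in Col-0 (SD, n = 3 each). In the ptac14 experiment it averaged -0.13 ± 0.20 in ptac14 and -1.03 ± 0.37 in Col-0, and with pTAC3 ChIP -0.18 ± 0.069 in ptac3 and -0.93 ± 0.15 in Col-0. psbT spans only 3 bins, fewer than any other member. Over psbH (ArthCp052, 222 bp) the averages were 0.024 ± 0.025 in ptac3 and -0.77 ± 0.22 in Col-0, then 0.052 ± 0.18 in ptac14 and -1.17 ± 0.25 in Col-0, and for pTAC3 -0.027 ± 0.12 in ptac3 and -0.98 ± 0.14 in Col-0. Groups of neither gene overlapped in any experiment, and with this scaling both genes were called higher in the mutant in all 3.

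petB encodes the cytochrome b6 subunit, which carries hemes, and petD encodes subunit IV of the same complex; both genes hold an intron in land plants. RpoB over petB (ArthCp053, 1452 bp, bins at 74801 to 76300) was 0.15, 0.038 and 0.015 in ptac3, against -1.47, -0.79 and -1.04 in Col-0. In the ptac14 experiment it was -0.012, 0.016 and -0.12 in ptac14, against -1.30, -1.52 and -2.04 in Col-0. pTAC3 over petB was -0.046, -0.044 and -0.034 in ptac3, against -1.01, -1.40 and -1.39 in Col-0. The Col-0 libraries spread widely, with replicate 3 of the ptac14 experiment lowest, but none came near a mutant library. On the linear scale the Col-0 means were 0.466, 0.325 and 0.415 of input in the 3 experiments. The change was 1.17 ± 0.18 (adjusted p = 5.46e-10) in the ptac3 experiment, 1.58 ± 0.22 (8.41e-06) in the ptac14 experiment and 1.23 ± 0.17 (1.95e-12) in the pTAC3 experiment (limma).

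petD (ArthCp054, 1192 bp, bins at 76451 to 77700) followed petB closely. Its means were -0.067 ± 0.076 in ptac3 and -1.11 ± 0.39 in Col-0, then 0.023 ± 0.077 in ptac14 and -1.54 ± 0.39 in Col-0, and with pTAC3 ChIP -0.097 ± 0.051 in ptac3 and -1.28 ± 0.24 in Col-0. Within a library petD minus petB lay between -0.16 and 0.067 in mutants and between -0.061 and 0.14 in Col-0. The low level named for petB was therefore shared by petD.

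**Figure D3:**
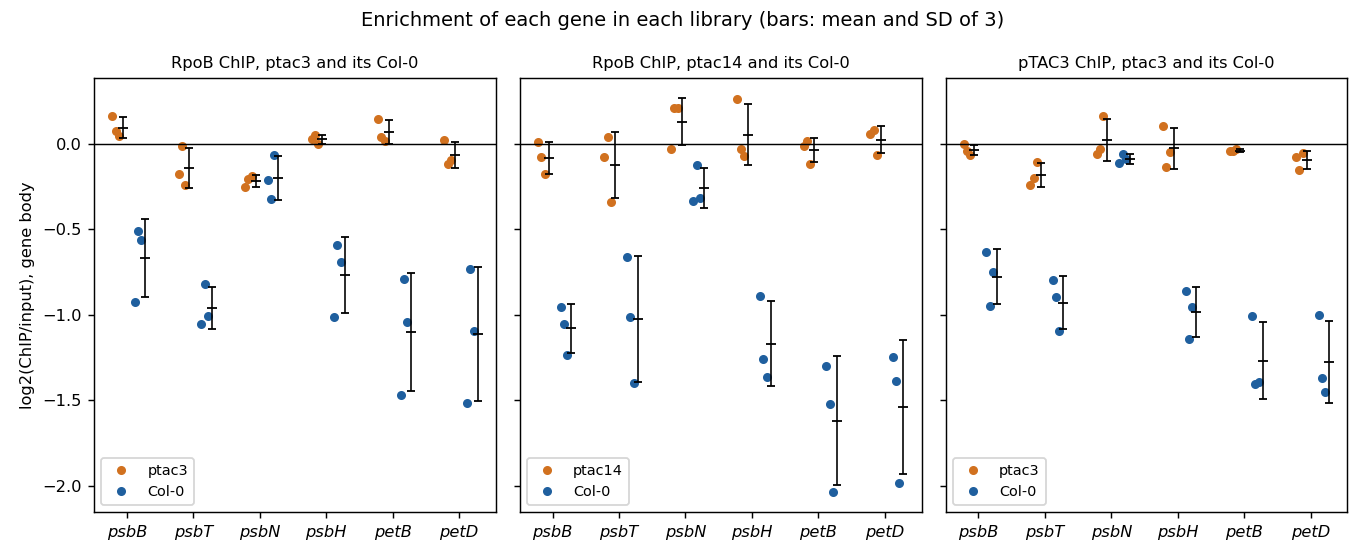
Gene-body enrichment (log2 of ChIP over input, y axis) of the 5 operon genes and psbN (x axis) in every library; points are libraries, bars the mean and SD of 3, and mutants stand left of Col-0. The mutant points lie near 0, the Col-0 points of the 5 genes lie below them without overlap, and psbN stays near 0 in both.

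With scaling to the library mean, 5 of 5 members were called higher in the mutant in each experiment. The background was high, since 51.6%, 54.7% and 52.3% of the 128 genes were called higher in the 3 experiments and 31.2%, 27.3% and 36.7% lower. No member was called against input in a mutant, where 0.781%, 0% and 2.34% of genes were called in either direction. In Col-0 5 of 5 members were called below input, as were 57.8%, 57.8% and 53.9% of all genes. All mutant libraries lay above all Col-0 libraries for 5 of 5 members in each experiment, and for 55.5%, 59.4% and 54.7% of all genes.

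The direction of the change depended on what the libraries were scaled to. The median of all 128 genes changed by 0.606, 0.868 and 0.536 in the 3 experiments with scaling to the mean, and the members' changes are therefore also given relative to it. With scaling to the median bin the median gene changed by -0.277, -0.425 and -0.378. Members called higher were then 1, 2 and 2, and members called lower 0, 1 and 0. Scaling to rpoB, rpoC1 and rpoC2, the operon of polymerase subunit genes that the nuclear-encoded polymerase reads, turned every member. With it 0 members were called higher and 2, 5 and 5 were called lower, as were 89, 106 and 105 of all 128 genes. Of all genes called, 62.3%, 66.7% and 58.8% were higher with the mean, 18.2%, 28.7% and 26.1% with the median bin, and 0% in each experiment with the rpo genes. Relative to the median gene, which no scaling alters, petB changed by 0.56, 0.71 and 0.69 and psbB by 0.15, 0.13 and 0.20.

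**Figure D4:**
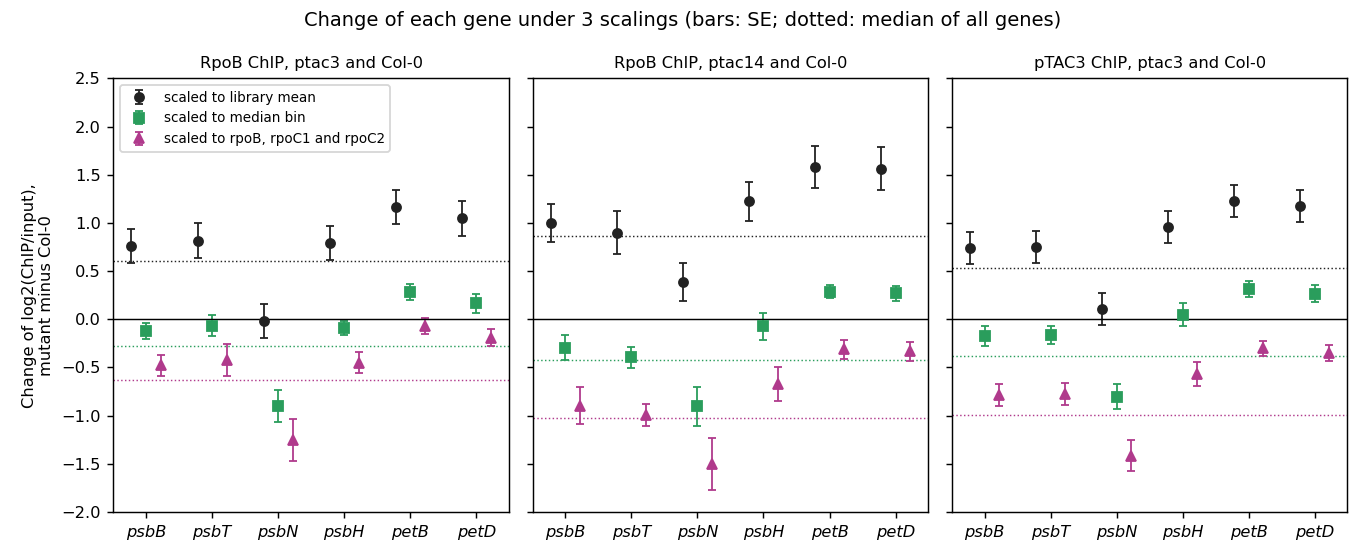
Change of log2(ChIP/input), mutant minus Col-0 (y axis), for the 5 operon genes and psbN (x axis) with libraries scaled to their mean, to their median bin, or to 3 rpo genes (rpoB, rpoC1, rpoC2); bars are SE and dotted lines the median change of all 128 genes. The 5 genes lie above 0 with the mean and below 0 with the rpo genes, and petB and petD lie above psbB under each.

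The members were also set against rpoB, rpoC1 and rpoC2 within each library. psbB lay above these genes in 4 of 9 mutant libraries, with values from -0.079 to 0.15, and petB in 6 of 9, from -0.047 to 0.14. Every member stood above them in 9 of 9 Col-0 libraries, psbB by 0.46 to 1.24 and petB by 0.10 to 0.43. In Col-0 with this scaling psbB was above input by 0.60 ± 0.074, 0.86 ± 0.13 and 0.73 ± 0.078 (SE) in the 3 experiments, with adjusted p of 0.000555, 0.00121 and 0.000115 (limma). petB was above by 0.16 ± 0.056, 0.32 ± 0.067 and 0.24 ± 0.055, with adjusted p of 0.0375, 0.00405 and 0.00509. Thus petB lay low among the operon's genes, yet above the rpo genes in Col-0 of all 3 experiments. In the ptac3 experiment it also lay above them in the mutant, by 0.14, 0.094 and 0.089, against 0.23, 0.18 and 0.10 in Col-0. The change of petB with this scaling was -0.072 there and was not called (adjusted p = 0.434, limma). It was -0.31 (0.0222) in the ptac14 experiment and -0.30 (0.00978) in the pTAC3 experiment.

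The order of the genes in Col-0 showed the step inside the operon. In the ptac3 experiment it ran psbB, psbH, psbT, petB, petD; in the ptac14 experiment psbT, psbB, psbH, petD, petB; and in the pTAC3 experiment psbB, psbT, psbH, petB, petD. Neighbours in these orders differed by less than the larger of their SDs, with the exception of psbH and petB in the pTAC3 experiment. In the mutants psbB was the highest of the 5 in 4 of 9 libraries and petB or petD the lowest in 1 of 9. In Col-0 psbB was the highest in 6 of 9 libraries and petB or petD the lowest in 8 of 9, and psbB exceeded petB in 9 of 9.

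Within a library psbB minus petB was 0.017, 0.036 and 0.030 in ptac3 and 0.54, 0.28 and 0.48 in Col-0. It was 0.021, -0.093 and -0.059 in ptac14 and 0.35, 0.47 and 0.80 in Col-0. pTAC3 ChIP gave 0.041, 7e-05 and -0.032 in ptac3 and 0.38, 0.45 and 0.64 in Col-0. No mutant library reached a Col-0 library of its experiment. The difference of the group means was -0.41, -0.58 and -0.49, each with an exact two-sided permutation p of 0.1, the smallest possible here.

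psbN (ArthCp051, 132 bp), whose product is needed to assemble photosystem II and is not part of it, lies between psbT and psbH. Enrichment over it was -0.26, -0.21 and -0.19 in ptac3, against -0.21, -0.32 and -0.066 in Col-0. The ptac14 experiment gave -0.029, 0.21 and 0.21 in ptac14, against -0.33, -0.12 and -0.32 in Col-0, and the pTAC3 experiment -0.060, -0.034 and 0.16 in ptac3, against -0.12, -0.059 and -0.089 in Col-0. With scaling to the mean its change was -0.018 ± 0.18 (adjusted p = 0.928), 0.39 ± 0.19 (0.0737) and 0.11 ± 0.17 (0.531), and it was not called (limma). In the ptac14 experiment, where same-numbered libraries varied together, the fit with a replicate block called the change, with an adjusted p of 0.036, and so did a single fit over the 18 ChIP libraries, with an adjusted p of 0.00912. Scaled to the median bin psbN was called lower in each mutant, by -0.90, -0.91 and -0.80, and scaled to the rpo genes by -1.26, -1.51 and -1.42.

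psbN stood above all 5 operon genes in 4 of 9 mutant libraries and in 9 of 9 Col-0 libraries. psbN minus petB was -0.40, -0.25 and -0.20 in ptac3 and 1.26, 0.47 and 0.98 in Col-0; -0.017, 0.19 and 0.33 in ptac14 and 0.97, 1.40 and 1.72 in Col-0; and for pTAC3 -0.014, 0.0099 and 0.20 in ptac3 and 0.89, 1.34 and 1.30 in Col-0. Groups did not overlap in any experiment. The highest bin was also sought from 500 bp after the psbB start to the petD end. It lay between 1900 and 2100 bp in 2 of 9 mutant libraries and in 9 of 9 Col-0 libraries. In each Col-0 library its centre was at 2004 or 2054 bp. psbN ends 2009 bp after the psbB start, so this maximum lay at the gene's edge or in the spacer before psbH. Of the mutants, ptac14 replicate 3 was counted with 0.23 at 1954 bp but had a higher bin, 0.26, at 54 bp. The spacer between psbN and psbH averaged -0.12 ± 0.13, -0.089 ± 0.19 and 0.077 ± 0.061 in Col-0 of the 3 experiments. The next spacer, between psbH and petB, averaged -1.15 ± 0.32, -1.63 ± 0.28 and -1.36 ± 0.17, so the Col-0 signal fell away across the short psbH gene.

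Beyond that step the Col-0 profile was level. Windows of 500 bp starting 2500, 3000, 3500, 4000 and 4500 bp after the psbB start averaged -0.021, 0.055, 0.14, -0.11 and -0.11 in ptac3 of the ptac3 experiment. The same windows averaged -1.20, -1.02, -1.13, -1.16 and -1.11 in its Col-0. In Col-0 of the ptac14 experiment they lay between -1.68 and -1.53, and in that of the pTAC3 experiment between -1.35 and -1.23. The lowest Col-0 bin was -1.40 ± 0.50, 3954 bp after the psbB start, in the ptac3 experiment, -1.93 ± 0.35 at 4004 bp in the ptac14 experiment and -1.55 ± 0.42 at 2954 bp in the pTAC3 experiment. All of these fall in petB or in the spacer behind it.

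Of the genes around the operon, clpP, a subunit of the plastid Clp protease, ends 489 bp before psbB. It averaged -0.043 ± 0.066 in ptac3 and -0.93 ± 0.35 in Col-0, 0.073 ± 0.21 in ptac14 and -1.33 ± 0.41 in Col-0, and with pTAC3 ChIP 0.039 ± 0.16 in ptac3 and -0.92 ± 0.19 in Col-0. rpoA, the alpha subunit of PEP, starts 229 bp after petD. Its means were -0.083 ± 0.034 in ptac3 and -0.73 ± 0.16 in Col-0, -0.038 ± 0.11 in ptac14 and -0.92 ± 0.45 in Col-0, and 0.018 ± 0.092 in ptac3 and -0.76 ± 0.18 in Col-0 for pTAC3. rpoA thus lay above petD in the Col-0 means of all 3 experiments. The next gene beyond clpP is rps12, a ribosomal protein gene, which averaged 0.072 in ptac3 and -1.06 in Col-0, -0.019 in ptac14 and -1.86 in Col-0, and with pTAC3 ChIP 0.087 in ptac3 and -1.43 in Col-0.

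**Figure D5:**
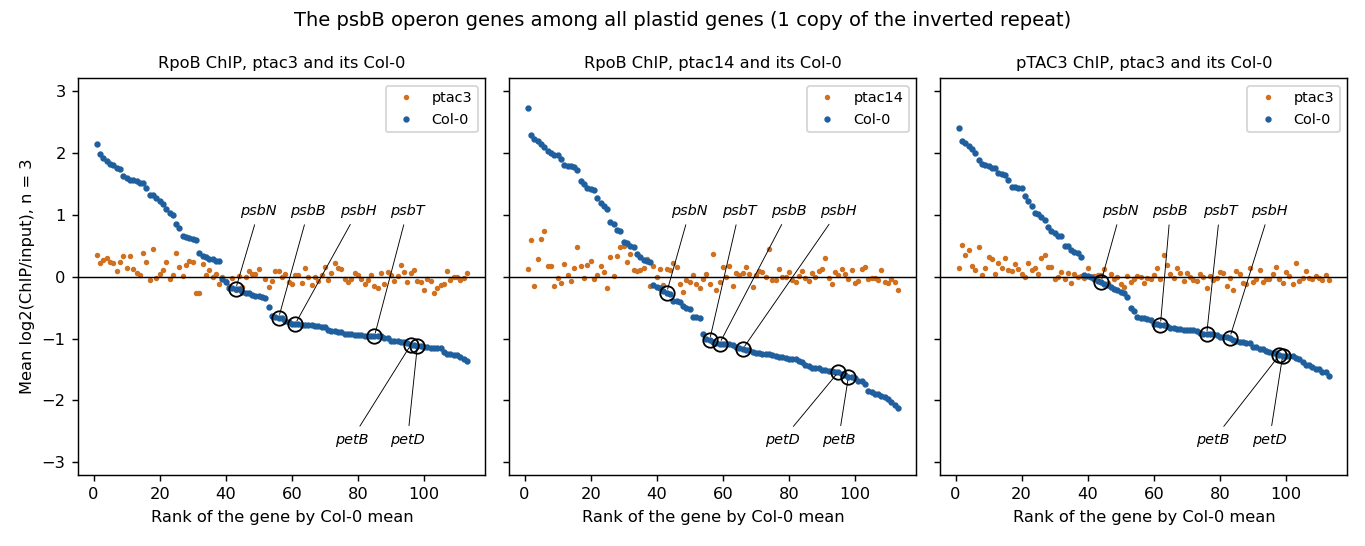
Mean enrichment (log2 of ChIP over input, y axis, n = 3) of 113 plastid genes ordered by their Col-0 mean (x axis), with the mutant mean of each gene at the same rank. Circles mark the operon genes and psbN; the mutant means scatter around 0 along the ranks, and petB and petD sit between rank 95 and rank 99 in Col-0.

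Counting 1 copy of the inverted repeat, petB ranked 96th, 98th and 98th of 113 genes by Col-0 mean in the 3 experiments, petD 98th, 95th and 99th, and psbB 56th, 59th and 62nd. psbN ranked 43rd, 43rd and 44th. The 3 genes most like psbB over the 18 ChIP libraries, by root mean square difference of enrichment, were psbE (0.124), rps4 (0.129) and psaB (0.133). Those most like petB were rpl2 (0.0838), atpI (0.109) and ycf1 (0.134). The median difference was 0.481 for psbB and 0.442 for petB over 108 genes, and all genes of a library share its scaling and depth.

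Among 12 other photosystem II genes, psbN included, 5, 7 and 4 were called higher and 1, 1 and 2 lower in the mutants of the 3 experiments with scaling to the mean. Their median change was 0.33, 0.50 and 0.14. psbA, which encodes a reaction centre protein, was the highest in Col-0 of each experiment, at 0.020 in ptac3 and 0.99 in Col-0, 0.031 in ptac14 and 1.27 in Col-0, and with pTAC3 ChIP -0.0047 in ptac3 and 1.30 in Col-0. The lowest were psbL at -1.13, psbF at -1.27 and psbL at -0.98 in Col-0 of the 3 experiments. Of the 4 cytochrome b6f genes elsewhere, 2, 2 and 3 were called higher and 0 lower, with a median change of 0.58, 0.87 and 0.81. petL was the lowest of them in Col-0 of each experiment, at -1.22, -1.89 and -1.14, and petN the highest, at -0.19, -0.17 and 0.0062. All 3 of rpoB, rpoC1 and rpoC2 were called higher in each experiment, with a median change of 1.24, 1.86 and 1.50, which is larger than that of the 5 operon genes, 0.82, 1.22 and 0.96.

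The ptac14 and ptac3 mutants were compared by the difference of their changes in RpoB ChIP. It was 0.24 ± 0.23 for psbB, 0.083 ± 0.26 for psbT, 0.43 ± 0.25 for psbH, 0.41 ± 0.28 for petB and 0.51 ± 0.29 for petD (SE). The adjusted p values ran from 0.278 to 0.808, and 0 of 128 genes (0%) passed (limma), with 19 at an unadjusted p under 0.05. Leaving out Col-0 replicate 1 of the ptac14 experiment, 3 genes passed, none of them a member. The errors leave room for differences as large as the estimates, so the test does not show that both mutants act alike.

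pTAC3 and RpoB were compared in Col-0, over 3 and 6 libraries. pTAC3 minus RpoB was 0.096 ± 0.16 for psbB, 0.063 ± 0.17 for psbT, -0.016 ± 0.17 for psbH, 0.092 ± 0.20 for petB and 0.051 ± 0.20 for petD (SE), with adjusted p from 0.902 to 0.954. None of 128 genes (0%) passed (limma), and 5 had an unadjusted p under 0.05. Before psbB the estimate was higher for pTAC3, by 0.65 ± 0.20 in the bin starting 220 bp before psbB. There 4 of the 7 bins around the start had an unadjusted p under 0.05, against 1.52% of 3085 bins, but the lowest adjusted p was 0.999 and 0 bins (0%) passed. Antibody and seedling material changed together between these libraries and cannot be told apart.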

How the data were processed

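ChIP and input libraries were grouped by title and plant line; a genotype tag reading wild type for every sample was not used. The authors deposited whole-number read coverage, a signal with no scaling to library size, for 154477 plastid positions and 36 libraries. Reads were trimmed with Trim Galore 0.4.1, aligned with Bowtie2 and handled with bedtools 2.25.0 on TAIR10, per the submitters' processing notes. Treatment of duplicates and of reads from the inverted repeat is not given in the sources used here.

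Mean coverage of 50-bp bins was divided by the library mean, a pseudocount of 5% of that mean was added, and log2 ratios to the same-numbered input were taken. Bins whose mean input fell below 10% of the median bin were dropped. Gene values are means over the gene body. Gene names and extents came from a RefSeq table of TAIR10.1, matched by symbol. Its fit to the coverage positions was checked with the mirrored copies of the inverted repeat, where the best-matching offset was 0 bp in each of 36 libraries. No sequence was used.

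Each experiment was fitted in limma 3.58.1 (R 4.3.3; two-sided, Benjamini-Hochberg over 128 genes or all bins, threshold 0.05), with a spread shared over genes: all genes of the ptac3 experiment had an SE of change of 0.179 and of the pTAC3 experiment 0.167. Genes within a library share its scaling and are not independent. Differences within a library were tested by exact permutation. The fits were also run on simulated data with independent noise in each gene and bin. That run could not assess noise shared within a library, and its outcome is not given here. Replicates differed by more than counting error in 36 of 36 pairs. The labels do not say that replicates came from separate plants, so p-values cover the spread between these libraries, which may be technical. Replicate numbers are shared across groups. Deviations of same-numbered mutant and Col-0 libraries correlated at 0.584, 0.291 and 0.8 in the ptac14 experiment. They correlated at -0.544, -0.439 and -0.0367 in the ptac3 experiment and at 0.521, -0.1 and 0.0152 in the pTAC3 experiment. The library of the same number was the best match in 3 of 9 pairs. The main fits and permutation tests were therefore unpaired in every experiment, and a replicate block was fitted only as an alternative.

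The genes, gene lists and windows were chosen with earlier results of these data known. Beyond the members, the named genes are psbN, the 2 nearest entries on each side of the operon (1 of them is not reported here), the 3 genes most like psbB and most like petB, and the highest and lowest of each list. The alternatives were other scalings, pseudocounts of 1% and 25%, no input filter, the mean of the 3 inputs, bins of 200 bp, the ratio of mean gene coverage, the replicate block, 1 fit over the 18 ChIP libraries and leaving out each library.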

Additional observations from a re-analysis of the deposited data

How the results depend on the processing

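Scaling was the choice that turned results. Values follow the order ptac3, ptac14, pTAC3 experiment. Scaled to the median bin, the change from Col-0 was -0.12, -0.29 and -0.17 for psbB, -0.067, -0.39 and -0.17 for psbT, -0.093 and -0.071 for psbH in the ptac3 and ptac14 experiments, and -0.91 and -0.80 for psbN in the ptac14 and pTAC3 experiments. Col-0 against input was then 0.23, 0.26 and 0.15 for psbB, 0.31 and 0.00039 for psbT in the ptac14 and pTAC3 experiments, 0.13 and 0.17 for psbH in the ptac3 and ptac14 experiments, and 0.69, 1.08 and 0.84 for psbN. petB and petD kept their direction, but the petD change in the ptac3 experiment, 0.16, was no longer called (adjusted p = 0.2, limma). Calls were also lost, without a turn, for psbT in Col-0 against input of the ptac3 experiment (-0.068, adjusted p = 0.479). The same held for psbH in the pTAC3 experiment, in the change (0.045, 0.767) and in Col-0 against input (-0.055, 0.578). Scaled to the rpo genes, the change was -0.48, -0.90 and -0.79 for psbB, -0.42, -0.99 and -0.78 for psbT, -0.45, -0.67 and -0.57 for psbH, -0.072, -0.31 and -0.30 for petB, -0.19, -0.33 and -0.35 for petD, and -1.51 and -1.42 for psbN in the ptac14 and pTAC3 experiments. Col-0 against input became 0.60, 0.86 and 0.73 for psbB, 0.30, 0.92 and 0.58 for psbT, 0.50, 0.77 and 0.52 for psbH, 0.16, 0.32 and 0.24 for petB, 0.15, 0.40 and 0.23 for petD, and 1.06, 1.68 and 1.42 for psbN. Bins of the operon window called fell to 25, 46 and 39 of 137 for the change with the median bin. Of these 4, 10 and 18 were higher and 21, 36 and 21 lower. In Col-0 against input 57, 78 and 81 were called, with 30, 42 and 27 above input and 27, 36 and 54 below. With the rpo genes 57, 82 and 94 were called for the change, all lower. In Col-0 against input 76, 113 and 94 were then called, all above input. The shares of all bins called with these 2 scalings are not given here. The ptac14 minus ptac3 difference was -0.17 for psbB and -0.33 for psbT with the median bin, and -0.42, -0.57, -0.22, -0.24 and -0.14 for psbB, psbT, psbH, petB and petD with the rpo genes. pTAC3 minus RpoB was -0.091, -0.12, -0.095 and -0.14 for psbB, psbT, petB and petD with the median bin, and -0.031, -0.0022 and -0.043 for psbT, petB and petD with the rpo genes; each scaling shifts a library as a whole by construction. Differences within a library did not move with the scaling. Leaving out 1 library moved these uncalled values through 0: psbN in the ptac3 experiment between -0.080 and 0.050, psbT in the ptac14 minus ptac3 difference between -0.10 and 0.26, and pTAC3 minus RpoB between -0.030 and 0.15 for psbT, -0.079 and 0.063 for psbH, -0.038 and 0.17 for petB and -0.086 and 0.15 for petD. Genes called in the ptac14 minus ptac3 difference ranged from 0 to 3, with 3 in the fit lacking replicate 1 of the ptac14 experiment's Col-0; the cause was not tested. With the replicate block, genes called were 102, 114 and 114 of 128 for the change; the psbN call in the ptac14 experiment (adjusted p = 0.036 for the change and 0.0442 in Col-0 against input) was new, and the block changed no other call among the 5 members and psbN. One fit over the 18 ChIP libraries also called psbN in the ptac14 experiment (adjusted p = 0.00912 for the change and 0.0115 in Col-0 against input) and in Col-0 against input of the ptac3 experiment (0.0443), and changed no other call of these genes. The labels do not say, for any experiment, whether same-numbered samples share more than the number. With 200-bp bins 30, 31 and 32 of 35 bins of the operon window were called for the change from Col-0. The share over all 200-bp bins was not counted. Of all 50-bp bins, 2650 of 3085, 2681 of 3085 and 2710 of 3086 were called for the change. The pseudocounts, the missing filter, the mean input and the ratio of gene means changed no member's call or direction with scaling to the mean. Depth limits single bins most, since the shallowest ChIP library had a mean coverage of 59.2.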

Other observations

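The 2 Col-0 groups of RpoB ChIP were compared with each other after their values had been seen, as a check on how far controls vary. Col-0 of the ptac14 experiment minus Col-0 of the ptac3 experiment was -0.41 ± 0.18 for psbB, -0.064 ± 0.20 for psbT, -0.40 ± 0.19 for psbH, -0.52 ± 0.23 for petB and -0.42 ± 0.24 for petD (SE; 3 libraries each). Adjusted p values ran from 0.153 to 0.832, and 0 of 128 genes passed (limma), with 40 at an unadjusted p under 0.05. All 5 estimates were thus lower in Col-0 of the ptac14 experiment, in a comparison of wild type with wild type. This was not particular to the operon. The median Col-0 enrichment of 113 genes, counting 1 copy of the inverted repeat, was -1.05 there and -0.67 in the ptac3 experiment. The spacer between clpP and psbB, which holds the Col-0 maximum, averaged -0.15 ± 0.021 in ptac3 and -0.32 ± 0.24 in Col-0 of the ptac3 experiment (SD, n = 3 each). It averaged 0.00063 ± 0.13 in ptac14 and -0.31 ± 0.20 in Col-0 of the ptac14 experiment, and -0.038 ± 0.18 in ptac3 and 0.10 ± 0.13 in Col-0 of the pTAC3 experiment.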
